A study of Mus musculus with 16 samples.

Results

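The Polycomb group genes of the mouse striatum were examined in R6/1 and wild-type mice. The group was a list of 39 gene symbols, each matched to 1 row of the deposited count table by its Ensembl identifier. A gene counted as a member if it held 10 or more counts in 4 or more of the 16 libraries. All 39 met this, among 19363 genes that did so out of 55450 in the table. By complex, 11 members belong to PRC2, 20 to PRC1 and 8 to neither. Every member reached 10 counts in all 16 libraries. Phf19, the scarcest by total, had between 16 and 39 counts in each.

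The samples were striata of male mice aged 14 weeks on a C57Bl/6 background, with 1 RNA-seq library per mouse. R6/1 mice carry a transgene with exon 1 of the human huntingtin gene, its own promoter and a long CAG repeat, and are a model of Huntington's disease (HD), while the wild-type (wt) mice were littermates without it. Within each genotype, 4 mice were classed as “good” and 4 as “poor” performers by their rotarod, feet clasping and body weight scores, giving wt good, wt poor, R6/1 good and R6/1 poor groups of 4 mice each, with no drug treatment. These classes were the extremes of a larger cohort, so they do not represent the average animal. The table lists mouse genes only, so the human transgene could not be checked in it.

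Total counts ran from 16155356 to 24897354 per library. Levels are given as CPM, that is, counts relative to the total of the library after TMM scaling over the 16 libraries, and comparisons between genes as CPM per kilobase of annotated exon. Fold changes are log2 values from edgeR's quasi-likelihood test with their standard errors (SE). A gene is said to have risen or fallen only where the Benjamini-Hochberg adjusted p, taken over all 19363 genes, was below 0.05. All 12 marker genes of medium spiny neurons, the main striatal cell type, were detected in every group, but their summed level was 6057 to 9352 CPM in wt mice, 2329 to 3698 CPM in R6/1 good mice and 1507 to 2204 CPM in R6/1 poor mice. In bulk tissue, fewer cells of a type and less RNA per cell cannot be told apart, and the part of this shift in the results on Polycomb genes was not tested. Of the other marker lists, 8 of 8 microglial, 6 of 6 endothelial, 5 of 8 astrocyte and 4 of 8 oligodendrocyte genes fell over all R6/1 mice, and 0 of 8 cortical, 0 of 7 tested hypothalamic, 0 of 6 ependymal and 0 of 4 tested choroid plexus genes were called by edgeR, with 0, 3, 1 and 0 at an unadjusted p under 0.05. Among markers of dividing cells and neuroblasts 1 of 8 rose, and 1 astrocyte gene did. Taken by group against wild-type mice, 2 hypothalamic genes rose in R6/1 poor mice and 1 fell in R6/1 good mice. The summed level of the 10 hypothalamic markers was 44.3 and 30.0 CPM in R6/1 poor mice 1 and 3. It was at most 19.3 CPM in the other mice. The part of these markers in the results on Polycomb genes was not tested. The libraries carry running numbers, and those numbered 1 to 8 and 9 to 16 differed in several members. The lower range holds all R6/1 good mice, R6/1 poor mouse 2, wt good mice 1 and 4 and wt poor mouse 1. Performance and library number are therefore hard to separate among R6/1 mice, and values within each range are given where they matter.

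Polycomb proteins keep developmental genes silent in cells that should not use them. PRC2 places methyl groups on a lysine in the tail of histone H3 through its catalytic subunit, Ezh1 or Ezh2, which needs Eed and Suz12 to work. PRC1 attaches ubiquitin to another histone through Ring1 or Rnf2, each paired with a PCGF protein, and its CBX subunits read the mark that PRC2 leaves. In adult neurons, which do not divide, Ezh1 is generally the more abundant of the PRC2 enzymes, and loss of PRC2 in striatal neurons is known to release genes of other lineages.

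The promoters of the 3 members with the largest rises in R6/1 mice and of the one with the largest fall are printed from RefSeq (GRCm38.p6), because the values of these genes did not overlap between the genotypes. Each window runs from 250 bases before to 50 bases after a RefSeq start site, 5′ to 3′ on the gene's strand. Capitals mark CCAAT (the box bound by NF-Y), GGGCGG (the GC box bound by Sp factors), CACGTG (E-box), TGACGTCA (cyclic AMP response element) and TATAAA, each searched on both strands.
Sfmbt2 promoter, chr2:10370201-10370500, plus strand: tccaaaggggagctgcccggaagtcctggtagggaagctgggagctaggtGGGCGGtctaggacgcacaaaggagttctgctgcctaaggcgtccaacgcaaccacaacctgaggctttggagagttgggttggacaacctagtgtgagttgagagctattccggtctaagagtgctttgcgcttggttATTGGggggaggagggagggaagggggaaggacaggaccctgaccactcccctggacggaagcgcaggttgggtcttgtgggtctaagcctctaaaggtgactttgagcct
L3mbtl3 promoter, chr10:26375170-26375469, minus strand: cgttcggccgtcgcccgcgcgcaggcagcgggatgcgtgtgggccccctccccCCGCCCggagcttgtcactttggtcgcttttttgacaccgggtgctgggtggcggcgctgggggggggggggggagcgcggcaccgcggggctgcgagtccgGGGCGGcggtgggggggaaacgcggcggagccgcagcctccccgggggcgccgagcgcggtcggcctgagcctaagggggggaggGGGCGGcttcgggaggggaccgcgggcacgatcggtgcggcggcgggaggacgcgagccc
Cbx8 promoter, chr11:119040864-119041163, minus strand: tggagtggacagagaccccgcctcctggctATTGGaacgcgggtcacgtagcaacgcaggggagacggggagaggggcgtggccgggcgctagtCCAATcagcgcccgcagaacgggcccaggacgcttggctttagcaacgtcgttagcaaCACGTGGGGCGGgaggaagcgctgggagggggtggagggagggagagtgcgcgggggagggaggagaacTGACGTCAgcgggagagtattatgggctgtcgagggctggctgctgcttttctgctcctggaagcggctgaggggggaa
Cbx6 promoter, chr15:79834284-79834583, minus strand: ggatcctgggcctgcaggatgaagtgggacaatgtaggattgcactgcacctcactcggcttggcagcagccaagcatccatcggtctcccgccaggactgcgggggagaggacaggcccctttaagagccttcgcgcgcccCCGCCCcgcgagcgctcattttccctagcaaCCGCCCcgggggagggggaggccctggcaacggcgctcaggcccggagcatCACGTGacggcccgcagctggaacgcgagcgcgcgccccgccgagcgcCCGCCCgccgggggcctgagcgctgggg

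The Sfmbt2 window held 1 CCAAT match and 1 GC box, with 9 CpG dinucleotides and a ratio of observed to expected CpG of 0.392. RefSeq gives a further Sfmbt2 start site downstream, whose window (chr2:10372186-10372485) held 3 CCAAT matches and 4 GC boxes. The L3mbtl3 window was richer in CpG, with 44 of them, a ratio of 0.987 and 3 GC boxes. In the Cbx8 window, 2 CCAAT matches, 1 GC box, 1 E-box and 1 cyclic AMP response element were found, and its E-box directly adjoins its GC box. The Cbx6 window had 3 GC boxes and 1 E-box but no CCAAT match. RefSeq windows were found for 34 of the 39 members, 48 windows in all, and none was given for Pcgf1, Cbx2, Rybp, Yaf2 and Kdm6b. A GC box was present in 36 of the 48 windows (75%), against 35.7% of all 32851 windows of the same length. CCAAT was present in 39.6% against 37.4%, the E-box in 20.8% against 7.15%, TATAAA in 4.17% against 13.6% and TGACGTCA in 2.08% against 1.79%. The median ratio of observed to expected CpG was 0.81 over the members' windows and 0.384 over all windows. Every member passed the limit on counts, whereas all windows include those of genes that did not. Windows of other expressed genes were not compared, so these shares are not shown to be particular to Polycomb genes. These are matches of letters, and no factor binding was measured.

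Across the members, 13 rose and 3 fell when the 8 R6/1 mice were set against the 8 wild-type mice. That is 41.0% of the 39, while 34.2% of all 19363 genes were called in this comparison, with 17.2% higher and 17% lower. At an unadjusted p under 0.05 stood 18 members (46.2%), against 43.3% of all genes. The median log2 fold change was 0.09 over the members and 0.02 over all genes, and the median size of the change was smaller among the members, 0.12 against 0.20. The contrast in the share called depended on the count limit, while that in median size narrowed but remained. With at least 50 counts in 4 libraries the median sizes were 0.13 and 0.17. There, 16 of 38 members and 6024 of 14590 genes were called, which are similar shares. By complex, 4 of 11 PRC2 genes rose and 0 fell, 4 of 20 PRC1 genes rose and 2 fell, and 5 of the 8 others rose and 1 fell. Most changes were modest, and the exceptions were Sfmbt2, L3mbtl3 and Cbx8 among the rises and Cbx6 and Scmh1 among the falls. In 5 members (12.8%, against 9.07% of all genes, 4.05% higher and 5.03% lower) the R6/1 and wild-type mice did not overlap. These were Sfmbt2, L3mbtl3, Cbx8 and Pcgf6, higher in all 8 R6/1 mice, and Cbx6, lower in all 8.

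**Figure D1:**
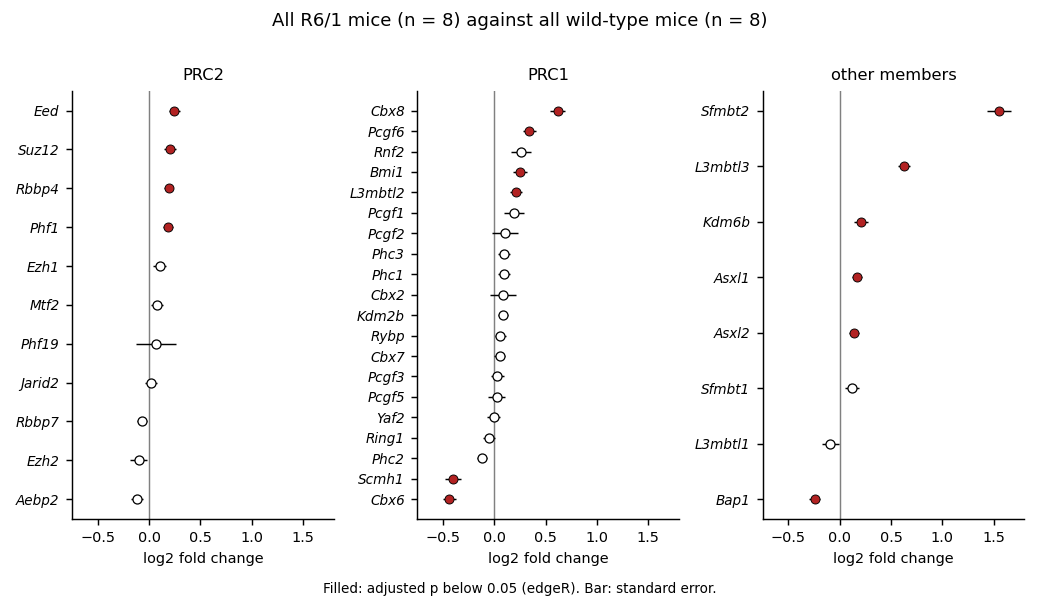
Log2 fold change of the 39 members in R6/1 against wild-type mice (horizontal axis, n = 8 for each genotype), by complex, with bars for the standard error and filled points for genes with an adjusted p below 0.05. Sfmbt2 stands apart at 1.55, and the other called genes lie between -0.44 and 0.63.

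Levels per kilobase differed widely within the group. In wild-type mice Rbbp7, a histone-binding PRC2 subunit shared with other chromatin complexes, was the most abundant at 48.3 CPM per kilobase. It was followed by Cbx6 (42.5 CPM per kilobase), Yaf2 (33.7 CPM per kilobase) and Bap1 (31.3 CPM per kilobase). At the other end were Phf19 (0.226 CPM per kilobase), Sfmbt2 (0.578 CPM per kilobase) and Cbx2 (1.24 CPM per kilobase). Thus the member with the largest rise was the second scarcest per kilobase in wild-type mice, and the PRC1 member with the largest fall was the second most abundant.

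Among the catalytic subunits of PRC2, Ezh1 was the more abundant, at 11.0 CPM per kilobase in wild-type mice against 1.75 CPM per kilobase for Ezh2. Ezh1 was at 91.9, 76.9, 74.1 and 82.3 CPM in the 4 wt good mice and at 84.6, 77.2, 84.5 and 82.7 CPM in the wt poor mice. It was at 92.3, 101, 88.8 and 98.5 CPM in the R6/1 good mice and at 75.8, 89.8, 79.7 and 77.4 CPM in the R6/1 poor mice. The R6/1 good mice were mostly above the wild-type range and the R6/1 poor mice within it. Over all R6/1 mice Ezh1 was not called (log2 fold change 0.10, SE 0.06, 95% interval -0.03 to 0.24). It rose in R6/1 good against wild-type mice (log2 fold change 0.22, SE 0.06, adjusted p = 0.0175), while in R6/1 poor mice the log2 fold change was -0.02 (SE 0.07). The call in R6/1 good mice was lost without R6/1 good mouse 2 or mouse 4, with a largest adjusted p of 0.0764. It was also lost with the range of the library number as a covariate (log2 fold change 0.14), within libraries 1 to 8 (0.13) and with only wt good controls (0.23).

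Ezh2 was at 11.3, 11.7, 11.0 and 13.2 CPM in wt good mice and at 13.3, 10.6, 13.1 and 9.56 CPM in wt poor mice. It was at 9.80, 10.4, 10.9 and 12.9 CPM in R6/1 good mice and at 9.44, 11.0, 11.8 and 11.0 CPM in R6/1 poor mice. The 4 groups overlapped throughout. Its log2 fold change over all R6/1 mice was -0.10 (SE 0.08), with a 95% interval from -0.27 to 0.07, and it was called in none of the 6 comparisons.

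Of the 4 non-catalytic core genes of PRC2, Eed, Suz12 and Rbbp4 rose in R6/1 mice and Rbbp7 was not called. Eed, which binds the methylated histone tail, was at 15.6, 18.1, 16.1 and 15.4 CPM in wt good mice and at 15.1, 16.4, 14.98 and 15.1 CPM in wt poor mice. It was at 19.5, 19.5, 20.6 and 19.7 CPM in R6/1 good mice and at 18.3, 16.9, 18.5 and 17.3 CPM in R6/1 poor mice. Only wt good mouse 2 reached into the R6/1 range. Eed rose over all R6/1 mice by 0.25 on the log2 scale (SE 0.06, adjusted p = 0.00243), and by 0.32 in R6/1 good mice (SE 0.07, adjusted p = 0.00284), but was not called in R6/1 poor mice (0.17, SE 0.07, adjusted p = 0.0872).

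Suz12, the subunit around which PRC2 assembles, was at 41.0, 54.8, 48.0 and 43.2 CPM in wt good mice and at 42.2, 49.0, 49.1 and 48.3 CPM in wt poor mice. It was at 49.8, 52.7, 54.2 and 58.0 CPM in R6/1 good mice and at 58.9, 50.3, 56.1 and 53.6 CPM in R6/1 poor mice. The genotypes overlapped through wt good mouse 2. Suz12 rose over all R6/1 mice by 0.21 on the log2 scale (SE 0.06, adjusted p = 0.0108). Rbbp4, the close relative of Rbbp7, ran from 100.4 to 113 CPM in wild-type and from 112 to 130.4 CPM in R6/1 mice, and rose by 0.19 on the log2 scale (SE 0.04, adjusted p = 0.00197). Rbbp7 did not pass the test (-0.07, SE 0.05).

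Of the 5 accessory PRC2 genes, 1 rose. Phf1, a Polycomb-like protein that helps the complex find its sites, ran from 28.4 to 31.0 CPM in wild-type mice and from 29.2 to 36.3 CPM in R6/1 mice (log2 fold change 0.18, SE 0.05, adjusted p = 0.00452). Its exons overlap those of Cuta on the opposite strand over 39.3% of their length, and no source used here states the strand setting of the counting, so its reads cannot be fully separated from those of Cuta. The other 4 were not called. Their log2 fold changes were 0.08 for Mtf2 and 0.07 for Phf19, which are the further Polycomb-like proteins, 0.02 for Jarid2 and -0.12 for Aebp2. The standard error of Phf19 was the largest of all members, 0.20, at about 1 CPM.

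**Figure D2:**
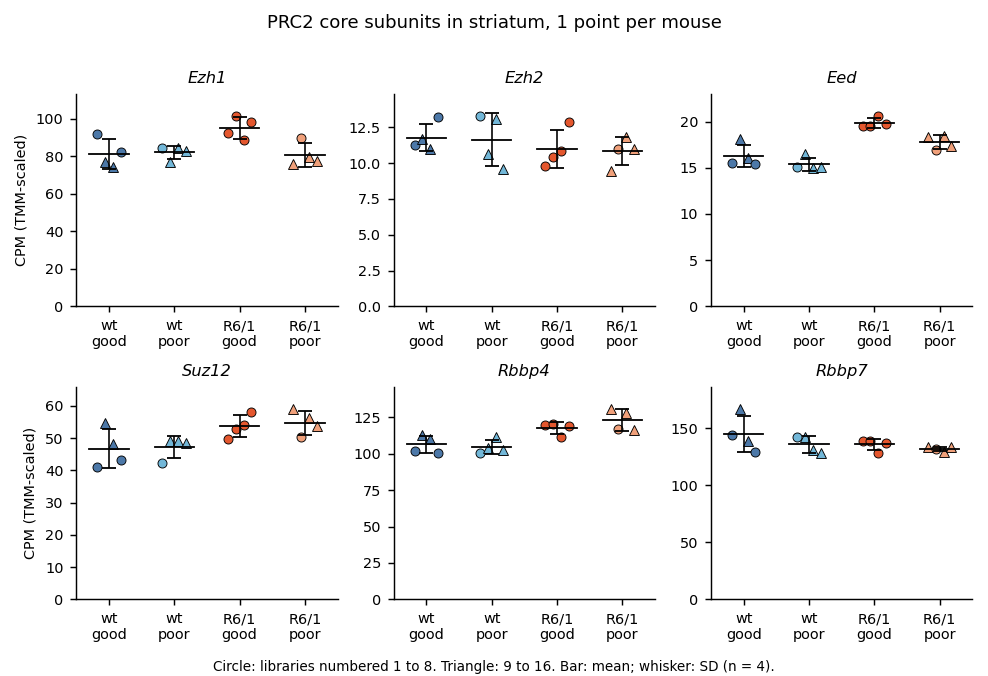
CPM (vertical axis, TMM-scaled) of the 6 catalytic and core PRC2 genes in each mouse of the 4 groups, with the mean as a line and the SD as whiskers (n = 4), and circles for libraries numbered 1 to 8 and triangles for 9 to 16. Eed and Rbbp4 sit higher in the R6/1 groups, Ezh2 does not separate, and Ezh1 is highest in R6/1 good mice.

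The paired ubiquitin ligases of PRC1 did not pass the test over all R6/1 mice. Ring1 was at 33.4, 30.7, 33.6 and 31.6 CPM in wt good mice and at 33.0, 28.3, 29.9 and 33.3 CPM in wt poor mice. It was at 27.2, 28.5, 33.9 and 28.5 CPM in R6/1 good mice and at 32.7, 29.2, 31.7 and 33.5 CPM in R6/1 poor mice. All groups overlapped, and its log2 fold change was -0.05 (SE 0.06, 95% interval -0.17 to 0.07). Rnf2, the ligase known to supply most of the ubiquitin mark in stem cells, was at 23.5, 31.9, 30.2 and 21.6 CPM in wt good mice and at 24.3, 33.6, 33.4 and 34.0 CPM in wt poor mice. It was at 35.1, 33.0, 31.7 and 29.1 CPM in R6/1 good mice and at 37.9, 33.1, 39.5 and 38.7 CPM in R6/1 poor mice. The wild-type mice fell into a low and a high set that followed the library numbers. Over all mice its log2 fold change was 0.26 (SE 0.10, 95% interval 0.05 to 0.46, adjusted p = 0.0504), just short of a call. With the range of the library number as a covariate Rnf2 was called, with a log2 fold change of 0.36 (SE 0.05, adjusted p = 5.8e-05), and within libraries 1 to 8 and 9 to 16 its log2 fold changes were 0.48 and 0.25, called in each.

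Among the 6 PCGF genes, whose products define the type of PRC1, 2 rose and 0 fell. Pcgf6, the partner found in a variant complex with Mga and L3mbtl2, was at 22.3 to 29.4 CPM in wild-type mice and at 30.2 to 35.8 CPM in R6/1 mice, with no overlap. It rose by 0.34 on the log2 scale (SE 0.06, adjusted p = 0.000386) and was called in every alternative run. Bmi1, the PCGF protein best known from stem cell renewal, ran from 46.8 to 68.2 CPM in wild-type mice and from 62.7 to 71.7 CPM in R6/1 mice. It rose by 0.25 on the log2 scale (SE 0.07, adjusted p = 0.00738), and the log2 fold change was 0.41 within libraries 1 to 8 and 0.19, not called, within 9 to 16. Pcgf1, Pcgf2, Pcgf3 and Pcgf5 were not called, at 0.19, 0.10, 0.03 and 0.02. In R6/1 good mice alone, Pcgf1 rose by 0.36 on the log2 scale (SE 0.10, adjusted p = 0.0117). That call was lost with the range of the library number as a covariate (0.20), within libraries 1 to 8 (0.18) and with only wt good controls (0.24).

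Of the 4 CBX genes, the chromatin readers of canonical PRC1, Cbx8 rose, Cbx6 fell and the other two were not called. Cbx8 was at 8.45, 9.45, 9.15 and 9.14 CPM in wt good mice and at 8.42, 7.83, 8.90 and 9.78 CPM in wt poor mice. It was at 16.1, 11.4, 14.0 and 14.0 CPM in R6/1 good mice and at 12.5, 14.9, 11.9 and 14.3 CPM in R6/1 poor mice. Every R6/1 mouse was above every wild-type mouse. Cbx8 rose by 0.62 on the log2 scale (SE 0.08, adjusted p = 9.7e-06), 1.53-fold in mean CPM.

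Cbx6 was at 480.4, 483, 413 and 479 CPM in wt good mice and at 451, 461, 409.9 and 429 CPM in wt poor mice. It was at 333, 349.8, 302 and 361 CPM in R6/1 good mice and at 295, 309, 305 and 404 CPM in R6/1 poor mice. No R6/1 mouse reached the lowest wild-type mouse, though R6/1 poor mouse 4 came within a few CPM of it. That mouse also had the highest sum of 8 cortical projection neuron markers of the 16 mice (817 CPM), but the next highest (733 CPM) was wt good mouse 4, and the part of these markers in the level of Cbx6 was not tested. Cbx6 fell by 0.44 on the log2 scale (SE 0.07, adjusted p = 5.3e-05). Cbx2 and Cbx7 were not called, with log2 fold changes of 0.08 (SE 0.13) and 0.05 (SE 0.05).

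Scmh1, a partner of the PHC proteins in canonical PRC1, also fell. It was at 85.7, 82.7, 60.4 and 76.3 CPM in wt good mice and at 76.8, 64.7, 79.9 and 69.7 CPM in wt poor mice. It was at 57.7, 60.4, 58.5 and 67.0 CPM in R6/1 good mice and at 48.2, 54.6, 50.1 and 53.7 CPM in R6/1 poor mice. All R6/1 poor mice were below all wild-type mice, and the R6/1 good mice overlapped with wt good mouse 3 and wt poor mouse 2. The log2 fold change was -0.41 (SE 0.08, adjusted p = 0.000536). The PHC genes, which let PRC1 form chains, were not called, at 0.09 for Phc1, 0.09 for Phc3 and -0.12 for Phc2.

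Of the 4 members that are variant PRC1 subunits outside the PCGF genes, only L3mbtl2 passed the test. It ran from 36.6 to 41.2 CPM in wild-type mice and from 36.4 to 51.3 CPM in R6/1 mice (log2 fold change 0.21, SE 0.06, adjusted p = 0.00938), and 17.2% of its exonic length overlaps Chadl on the opposite strand. Against wild-type mice it rose in R6/1 good mice (0.32, SE 0.06, adjusted p = 0.000913) and was not called in R6/1 poor mice (0.11, SE 0.06), and the R6/1 groups did not differ past the threshold when compared directly (adjusted p = 0.286). Rybp, Yaf2 and Kdm2b, which recruit or stabilize variant complexes, had log2 fold changes of 0.06, -0.01 and 0.08.

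**Figure D3:**
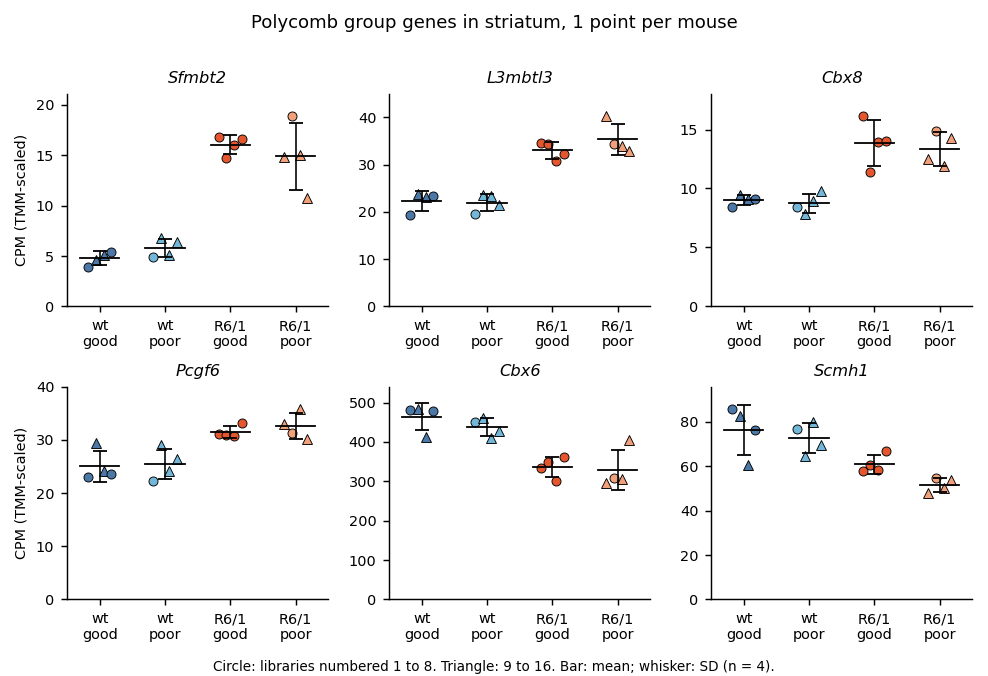
CPM (vertical axis, TMM-scaled) of 6 members in each mouse of the 4 groups, with the mean as a line and the SD as whiskers (n = 4), and circles for libraries numbered 1 to 8 and triangles for 9 to 16. All R6/1 mice lie above all wild-type mice for Sfmbt2, L3mbtl3, Cbx8 and Pcgf6 and below them for Cbx6, with both library ranges on each side.

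Outside PRC1 and PRC2, 2 of the 4 MBT genes rose, Sfmbt2 and L3mbtl3. Sfmbt2, whose protein has MBT repeats that bind methylated histone tails, was at 3.86, 4.61, 5.14 and 5.43 CPM in wt good mice and at 4.94, 6.77, 5.10 and 6.36 CPM in wt poor mice. It was at 16.9, 14.8, 16.01 and 16.6 CPM in R6/1 good mice and at 14.8, 18.9, 15.1 and 10.8 CPM in R6/1 poor mice. The lowest R6/1 mouse was well above the highest wild-type mouse. Sfmbt2 rose by 1.55 on the log2 scale (SE 0.12, adjusted p = 6.0e-08), 2.93-fold in mean CPM, and kept a log2 fold change of 1.8 within libraries 1 to 8 and 1.28 within 9 to 16. The annotation places 119 microRNA genes inside Sfmbt2, and these held 44 counts in all over the 16 libraries, so mature microRNAs were not measured by this assay.

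L3mbtl3, a relative with MBT repeats, was at 19.3, 23.7, 23.2 and 23.3 CPM in wt good mice and at 19.6, 23.5, 23.3 and 21.4 CPM in wt poor mice. It was at 34.6, 34.3, 30.8 and 32.3 CPM in R6/1 good mice and at 40.2, 34.4, 33.9 and 32.8 CPM in R6/1 poor mice. The genotypes did not overlap. L3mbtl3 rose by 0.63 on the log2 scale (SE 0.06, adjusted p = 7.7e-07), 1.54-fold in mean CPM. Sfmbt1 and L3mbtl1, the remaining MBT genes, were not called over all R6/1 mice, at 0.12 and -0.09. Sfmbt1 rose in R6/1 poor mice (0.22, SE 0.07, adjusted p = 0.0364). That call was kept in only 5 of the 12 fits that left out 1 mouse. It was also lost within libraries 9 to 16, with only wt poor controls and without a filter on low counts.

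The deubiquitinase that removes the PRC1 mark consists of Bap1 with Asxl1 or Asxl2. Its catalytic subunit Bap1 ran from 131 to 164 CPM in wild-type and from 116 to 135 CPM in R6/1 mice, and fell by 0.25 on the log2 scale (SE 0.05, adjusted p = 0.00139). Its partners moved the other way, with Asxl1 higher by 0.17 (SE 0.05, adjusted p = 0.0133) and Asxl2 by 0.14 (SE 0.05, adjusted p = 0.0441). The call on Asxl2 was lost without any 1 of 12 of the 16 mice. Kdm6b, a demethylase that removes the PRC2 mark, rose by 0.21 on the log2 scale (SE 0.07, adjusted p = 0.027), and that call was lost without any 1 of 6 mice.

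For a closer view of subunits that can replace each other, the log2 ratio of their CPM was compared between groups by a two-sided exact permutation test over mice, with adjustment over the 6 ratio comparisons made. The ratio of Rbbp7 to Rbbp4 averaged 0.41 (SD 0.11, n = 8) in wild-type and 0.16 (SD 0.08, n = 8) in R6/1 mice. It ran from 0.24 to 0.56 and from 0.01 to 0.22, so the genotypes did not overlap. The difference of -0.25 had an exact permutation p of 0.000155, the smallest that 12870 divisions of the mice can give (adjusted p = 0.000932). The ratio of Ezh2 to Ezh1 was -2.80 (SD 0.17) in wild-type and -3.0 (SD 0.18) in R6/1 mice, a difference of -0.20 that missed the threshold after adjustment (exact permutation p = 0.0448, adjusted p = 0.0671). The ratio of Rnf2 to Ring1 was higher by 0.32 in R6/1 mice and missed it as well (exact permutation p = 0.0221, adjusted p = 0.0571). Within R6/1 mice, no difference of a ratio by performance passed the adjusted threshold, and with 4 against 4 mice the exact test cannot go below 0.0286.

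The R6/1 groups were then compared separately with the 8 wild-type mice, which they share as controls. In R6/1 good mice 11 members rose and 3 fell (35.9%, against 24.6% of all genes called), and in R6/1 poor mice 11 rose and 3 fell (35.9%, against 28.5%). At an unadjusted p under 0.05 stood 18 members (46.2%, against 37.3% of all genes) in the former and 16 (41.0%, against 39.7%) in the latter. Of the 39, 9 lay above all wild-type mice in every R6/1 good mouse (7.46% of all genes did) and 1 below (7.76%), together 25.6% against 15.2%. They were Eed, Pcgf1, Pcgf6, Cbx8, L3mbtl2, Sfmbt2, L3mbtl3, Asxl1 and Asxl2 above and Cbx6 below. In R6/1 poor mice 6 lay above (7.25%) and 3 below (8.85%), together 23.1% against 16.1%. These were Phf1, Rbbp4, Pcgf6, Cbx8, Sfmbt2 and L3mbtl3 above and Cbx6, Scmh1 and Bap1 below. Sfmbt2 had log2 fold changes of 1.60 in R6/1 good and 1.49 in R6/1 poor mice. The pairs were 0.58 and 0.67 for L3mbtl3, 0.64 and 0.59 for Cbx8, 0.32 and 0.37 for Pcgf6, -0.42 and -0.46 for Cbx6, -0.29 and -0.53 for Scmh1 and -0.24 and -0.26 for Bap1, all called in each. Rbbp4 (0.16 and 0.22) was also called in each. Called only in R6/1 good mice were Ezh1, Eed, Pcgf1, L3mbtl2, Asxl1 and Asxl2, and only in R6/1 poor mice Suz12, Phf1, Rnf2, Bmi1, Sfmbt1 and Kdm6b. This division is not a test of a difference between the R6/1 groups. It also depends on which mice were used, since the number called in R6/1 poor mice fell from 14 to 8 without R6/1 poor mouse 3 and to 9 without R6/1 poor mouse 1 or wt poor mouse 1. In R6/1 good mice it fell from 14 to 9 without R6/1 good mouse 2 or mouse 4. R6/1 poor mice 1 and 3 also had the highest sums of hypothalamic markers of the 16 mice. The part of these markers in the calls was not tested.

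**Figure D4:**
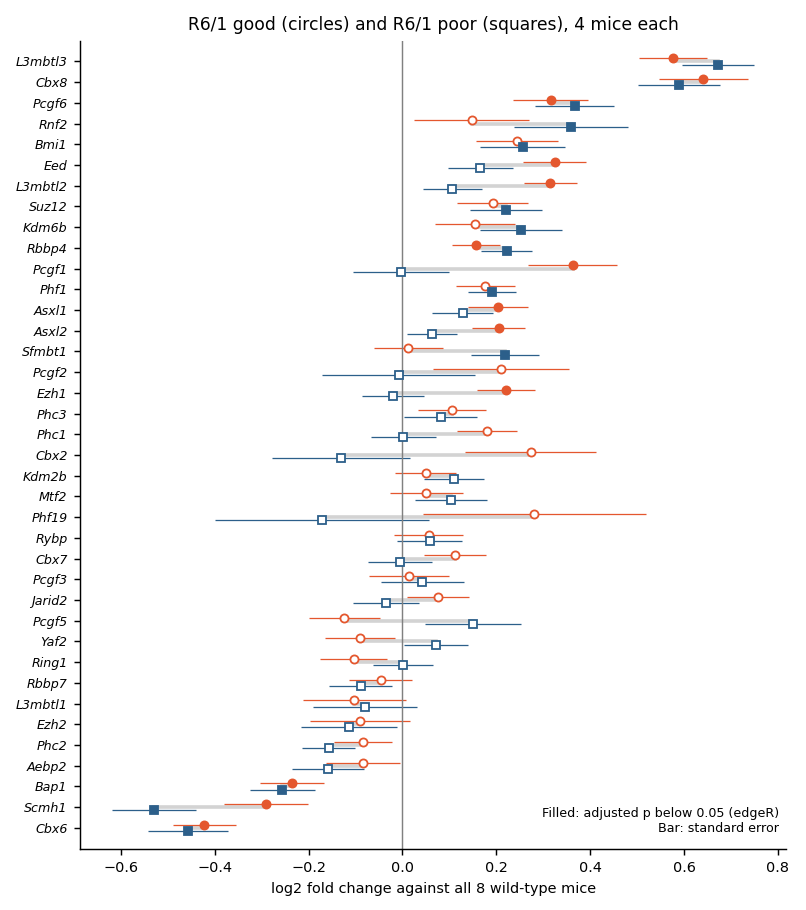
Log2 fold change against all 8 wild-type mice (horizontal axis) of 38 members in R6/1 good mice (circles) and R6/1 poor mice (squares), 4 mice each, with bars for the standard error and filled symbols for an adjusted p below 0.05. Sfmbt2 is left out for scale (1.60 and 1.49). L3mbtl3, Cbx8, Pcgf6, Rbbp4, Cbx6, Scmh1 and Bap1 are filled in both groups. The widest gaps between the groups are those of Phf19, Cbx2 and Pcgf1, of which only Pcgf1 in R6/1 good mice is filled.

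Set directly against R6/1 good mice, R6/1 poor mice showed 0 members and 0 of all 19363 genes called by edgeR (0%). At an unadjusted p under 0.05 stood 9 members (23.1%), against 15.5% of all genes, and the smallest adjusted p among the members was 0.248. In 5 members every R6/1 poor mouse was below every R6/1 good mouse (12.8%, against 4% of all genes), and in 0 members every one was above (2.45% of all genes, 6.45% in either direction). These were Pcgf1, Scmh1, L3mbtl2, Cbx2 and Eed. Pcgf1 was at 18.03, 18.9, 17.1 and 19.2 CPM in R6/1 good mice and at 13.5, 15.98, 14.3 and 13.1 CPM in R6/1 poor mice. Its log2 difference was -0.35 (SE 0.09, edgeR adjusted p = 0.248), and DESeq2, which called 1 member in all, called it with an adjusted p of 0.0325. Over all genes DESeq2 called 356 of 19363 (1.84%) in this comparison. The log2 differences of the other 4 were -0.22 for Scmh1, -0.19 for L3mbtl2, -0.39 for Cbx2 and -0.14 for Eed, and none was called.

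Library number moved with this comparison. Pcgf1 was also lower in libraries 9 to 16 than in 1 to 8 within wild-type mice, at 11.8 to 14.9 CPM against 15.02 to 16.8 CPM. With the range of the library number as a covariate its log2 difference by performance was -0.19 (SE 0.12), and 0 members had an unadjusted p under 0.05 in place of 9. In that fit, as in the one within libraries 1 to 8, the difference rests on R6/1 poor mouse 2 alone, since libraries 9 to 16 hold no R6/1 good mouse. Performance and library number cannot be told apart in these mice.

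Within wild-type mice alone, where both performance groups span both ranges, 10 members did not overlap between libraries 1 to 8 (3 mice) and 9 to 16 (5 mice). Among all genes 10.9% did not overlap, 5.97% higher and 4.89% lower in libraries 9 to 16. Of the 10 members, 9 were higher in libraries 9 to 16, namely Suz12, Rbbp4, Mtf2, Rnf2, Bmi1, Pcgf3, Pcgf5, Pcgf6 and Rybp, and 1, Pcgf1, was lower. Rnf2 ran from 21.6 to 24.3 CPM in the lower range and from 30.2 to 34.0 CPM in the upper. Suz12 ran from 41.0 to 43.2 CPM and from 48.0 to 54.8 CPM, and Bmi1 from 46.8 to 55.8 CPM and from 57.6 to 68.2 CPM. Within R6/1 mice, 13 members did not overlap between the ranges (5 and 3 mice), against 15% of all genes. Rnf2, Yaf2 and Sfmbt1 were higher in libraries 9 to 16 (3 members, 6.7% of all genes), and Ezh1, Jarid2, Pcgf1, Pcgf2, Cbx7, Phc1, Scmh1, L3mbtl2, Asxl1 and Asxl2 were lower (10 members, 8.3% of all genes). With the covariate, 18 members in place of 16 were called between the genotypes. Within libraries 9 to 16 alone the calls on Eed (0.16), Suz12 (0.17), Bmi1 (0.19), L3mbtl2 (0.09) and Bap1 (-0.21) were lost, and those on Phf1, Asxl1, Asxl2 and Kdm6b were lost within each range.

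**Figure D5:**
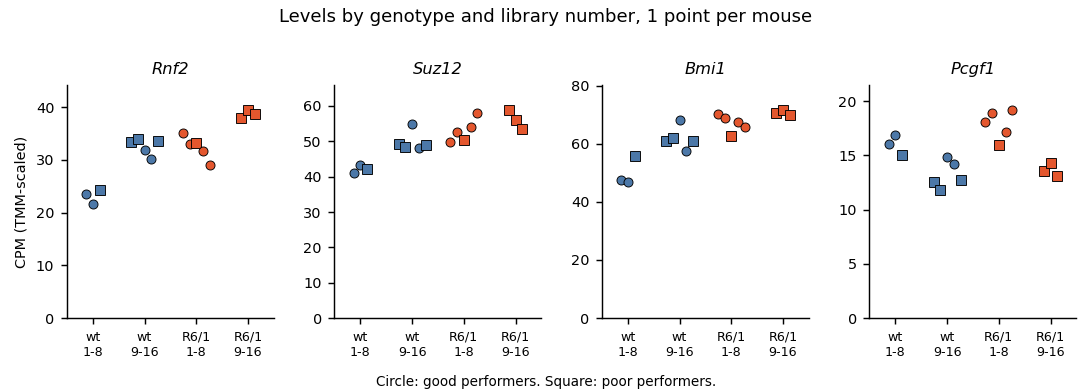
CPM (vertical axis, TMM-scaled) of 4 members in each mouse, by genotype and by library number (1 to 8 or 9 to 16), with circles for good and squares for poor performers. Rnf2, Suz12 and Bmi1 are lower and Pcgf1 is higher in wild-type libraries 1 to 8 than in 9 to 16, and Rnf2 and Pcgf1 show the same order in R6/1 mice.

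In wt poor against wt good mice 0 members and 0 of all genes were called by edgeR or, for the members, by DESeq2. At an unadjusted p under 0.05 stood 1 member, Pcgf1 (log2 difference -0.25, SE 0.11), against 2.44% of all genes. In 0 members did the wt poor and wt good mice not overlap (0.77% of all genes higher, 1.01% lower and 1.78% in all). The interaction of genotype and performance, which asks whether the gap between poor and good performers differs between R6/1 and wild-type mice, also called 0 members and 0 genes by edgeR. At an unadjusted p under 0.05 stood 3 members, Ezh1 (-0.26, SE 0.11), Cbx2 (-0.56, SE 0.22) and Asxl2 (-0.20, SE 0.09), which is 7.69% of the members against 5.77% of all genes.

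Other genes of the same machinery were taken from a separate list of 41 symbols, of which 40 were matched and tested. Over all R6/1 mice 10 rose and 5 fell, with a median log2 fold change of 0.04. Among all genes 34.2% were called in this comparison, 17.2% higher and 17% lower, so the list's share was close to the background. Among those with the smallest p were the histone deacetylase Hdac1 (0.52, SE 0.06), the variant PRC1 subunit Mga (0.37, SE 0.05) and the scaffold Wdr5 (0.20, SE 0.04), which all rose. The 5 that fell, named after their values were seen, were Epop (-1.24, SE 0.38), Auts2 (-0.34, SE 0.08), Mbd6 (-0.33, SE 0.10), Mbtd1 (-0.20, SE 0.06) and Bcor (-0.16, SE 0.06). Epop was at 8.66 to 17.7 CPM in wild-type mice, at 16.9 CPM in R6/1 poor mouse 4 and at 1.95 to 4.95 CPM in the other R6/1 mice. Its highest values were in wt good mouse 4 and R6/1 poor mouse 4. These had the highest cortical marker sums (733 and 817 CPM). R6/1 good mouse 1, with the next highest sum (518 CPM), had Epop at only 4.31 CPM. The part of these markers in the level of Epop was not tested. Mga forms a complex with Pcgf6 and L3mbtl2, and all 3 rose over all R6/1 mice. The variant PRC1 genes Rybp (0.06) and Yaf2 (-0.01) and the ligases Ring1 (-0.05) and Rnf2 (0.26) were not called there. L3mbtl2 was not called in R6/1 poor mice (0.11), so a joint rise of the complex was not shown. Cbx8 lies on chromosome 11 (119036305 to 119040969 in GRCm38, minus strand) and Cbx2 5.04 kb from it, where Cbx8 rose and Cbx2 did not pass the test. Cbx6 lies on chromosome 15 (79823896 to 79834688, minus strand) and Cbx7 81.1 kb from it, where Cbx6 fell and Cbx7 did not pass the test.

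A list of 95 developmental regulators, taken as under Polycomb repression in most tissues, was also examined, and all were matched. Whether Polycomb represses them in striatal cells was not tested. Only 16 of them passed the limit on counts, and none of the 39 Hox genes did. Of the 16, 2 rose and 0 fell over all R6/1 mice, with a median log2 fold change of -0.16. Among all genes 34.2% were called there, 17.2% higher and 17% lower, so the list's share was below the background. The 16 genes together held only 385 to 649 counts per library, however. Genes of similarly low counts were not compared, so the lower share is not shown to be particular to this list. Both that rose, Wt1 and Cdkn2b, met the limit on counts only with the R6/1 libraries included. A gene with almost no counts in wild-type mice, such as Wt1, could be tested only if it was higher in R6/1 mice. A fall could not be seen in such genes. Wt1, a transcription factor of kidney and gonad development, had 0, 0, 5 and 1 counts in wt good mice and 5, 1, 0 and 2 counts in wt poor mice. It had 61, 43, 31 and 40 counts in R6/1 good mice and 25, 43, 35 and 33 counts in R6/1 poor mice. Every R6/1 mouse was far above every wild-type mouse, with a log2 fold change of 4.38 (SE 0.44, adjusted p = 9.0e-07) whose size depends on the few wild-type counts. Cdkn2b, a cell cycle inhibitor at a classical Polycomb target locus, rose by 0.70 on the log2 scale (SE 0.23, adjusted p = 0.0264) at 7 to 20 counts per library. Its log2 fold change was 1.02 (SE 0.26, adjusted p = 0.0105) in R6/1 good mice and 0.32 (SE 0.25, not called) in R6/1 poor mice. The summed counts of the 39 Hox genes were 7 to 18 per library in wild-type mice, 15 to 36 in R6/1 good mice and 6 to 25 in R6/1 poor mice. At this depth the Hox genes stayed near the limit of detection in every group. All 79 developmental genes under the limit on counts, the Hox genes among them, summed to 2.26 to 3.18 CPM in wild-type mice. Their sum was 3.58 to 4.91 CPM in R6/1 good mice and 2.82 to 6.88 CPM in R6/1 poor mice. The difference in these sums was not tested.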

How the data were processed

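Striatal mRNA of 16 male mice was sequenced, 1 library per mouse. Per the labels, the authors used a stranded mRNA kit, and the submitters' processing notes name CASAVA, Bowtie and TopHat 1.0.1. The deposited values are raw counts per gene, whole numbers without normalization, and no source used here names the counter, its strand setting or the annotation release. All 55450 Ensembl identifiers are in GENCODE M21 (GRCm38), which gave symbols, exonic lengths and coordinates. The 19363 genes holding 10 counts or more in 4 or more libraries were tested by the robust quasi-likelihood test of edgeR 4.0.16 with TMM factors, adjusted by Benjamini-Hochberg, in R 4.3.3. The 6 comparisons were all R6/1 and each R6/1 group against the 8 wild-type mice, poor against good within each genotype, and the interaction. Alternatives were DESeq2 1.42.0, RLE factors, other count filters, a replicate block, 1 fit of all groups, controls of the same performance, leaving out each mouse and the library number. Paralogue ratios used log2 CPM with a prior count of 2.

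The members, gene lists and tests were chosen with earlier results of these data known. Per-mouse values were given for members called over all R6/1 mice with a log2 fold change of at least 0.4 in size, and for Ezh1, Ezh2, Eed, Suz12, Ring1 and Rnf2. Of each further list, up to 4 members with the smallest p were named, except for an item that is not reported here. The tests were tried on simulated counts with known changes. Figures were drawn with matplotlib 3.10.9.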

Additional observations from a re-analysis of the deposited data

Results flagged for a closer look

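In 10 of 156 sets of 4 mice (39 members in 4 groups), 1 mouse stood apart by Dixon's criterion, which by chance alone picks about 1 in 20 sets. Of these, 5 were in wt poor mice, and 3 of those were mouse 1, the only wt poor mouse in libraries 1 to 8. In wt poor mouse 1, Suz12 was at 42.2 CPM (others 48.3 to 49.1 CPM), Rnf2 at 24.3 CPM (others 33.4 to 34.0 CPM) and Aebp2 at 77.7 CPM (others 90.6 to 92.2 CPM). Eed was at 16.4 CPM in wt poor mouse 2 (others 14.98 to 15.1 CPM) and Yaf2 at 68.9 CPM in wt poor mouse 4 (others 60.5 to 61.9 CPM). Cbx6 was at 413 CPM in wt good mouse 3 (others 479 to 483 CPM) and at 404 CPM in R6/1 poor mouse 4 (others 295 to 309 CPM). L3mbtl3 was at 19.3 CPM in wt good mouse 1 (others 23.2 to 23.7 CPM). In R6/1 good mice, Rbbp4 was at 112 CPM in mouse 3 (others 119 to 120.1 CPM) and Pcgf6 at 33.1 CPM in mouse 4 (others 30.7 to 31.1 CPM). No member passed the test of the interaction of genotype and performance.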

How the results depend on the processing

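No named value that was called changed sign under any alternative run, over 6 comparisons of the 39 members. Between the genotypes, 7 of the 16 called members were called under every alternative (Sfmbt2, L3mbtl3, Cbx8, Pcgf6, Cbx6, Scmh1 and Rbbp4), and 14 of 16 without any single mouse. The count of members called there was 8 within libraries 9 to 16. In R6/1 good against wild-type mice it was 7 with only wt good controls. In R6/1 poor against wild-type mice it was 2 within libraries 1 to 8, where a lone R6/1 poor mouse takes its spread from the other groups, 8 within libraries 9 to 16 and 8 with only wt poor controls. These fits hold fewer mice. In R6/1 poor against R6/1 good mice DESeq2 called 1 member, and 356 of all 19363 genes where edgeR called 0, and the cause was not tested.

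Leaving out 1 mouse at a time, the counts ran from 14 to 17, 9 to 16 and 8 to 13 in these 3 comparisons with wild-type mice, and stayed at 0 in the other 3. The difference in the ratio of Rbbp7 to Rbbp4 ran from -0.28 to -0.23, past the threshold without any mouse. That of Ezh2 to Ezh1 ran from -0.24 to -0.16 and passed without 2 of the 16 mice, and that of Rnf2 to Ring1 from 0.27 to 0.38 and passed without 6. A prior count of 0.5 moved no ratio past the threshold.

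The replicate number did not pair the mice. Deviations of same-numbered mice correlated at -0.35 to 0.23 over 24 pairs, 5 of them over 0.1. With it as a block, 15, 17 and 11 members were called in the 3 comparisons with wild-type mice and 0 in the others, while 96 of all genes were called in R6/1 poor against R6/1 good mice. With 8 mice of each genotype, the smallest called change among the members was 0.14 on the log2 scale (Asxl2), and Phf19, at 16 to 39 counts, was tested with the least precision.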
